A study of Mus musculus with 19 samples.

Results

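The 10 genes described here encode receptors by which myeloid cells sense antibodies and microbial or damage-derived molecules, together with the adaptors *Fcer1g* and *Myd88* and the co-receptor *Cd14*. They were chosen by symbol from the 60567 entries of the deposited table, and each symbol matched 1 entry. Levels were compared across 19 RNAseq samples of FACS-sorted hippocampal cells, taken from male C57bl6 mice aged 9 months. GFP+ astrocytes came from 7 WT-GFP samples, 4 APP-GFP samples and 5 APP-SOCS3 samples, and GFP- cells came from 3 WT-GFP samples. All mice, controls included, had received an adeno-associated vector (AAV2/9) with the astrocyte promoter gfaABC1D in the CA1 region. This vector encoded GFP alone in WT-GFP and APP-GFP mice, and GFP together with a second vector for murine SOCS3, an inhibitor of the JAK2-STAT3 pathway, in APP-SOCS3 mice. APP mice are transgenics, which carry among their transgenes a chimeric mouse/human *App* gene with Swedish mutations, and WT mice are their non-transgenic littermates. The GFP- fraction is a mixture that holds microglia, neurons, oligodendrocyte precursor cells and astrocytes that the vector did not reach. Both hippocampi of each mouse were sorted independently and the labels do not say which samples share a mouse, so the *p* values measure the spread between samples.

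Fc gamma receptors bind the constant part of IgG. *Fcgr1* and *Fcgr3* encode activating receptors that signal through the gamma chain encoded by *Fcer1g*, while *Fcgr2b* encodes the inhibitory receptor. Among Toll-like receptors, *Tlr2* and *Tlr4* act at the cell surface, where *Cd14* helps to present ligands such as lipopolysaccharide. *Tlr3* and *Tlr7* sense double-stranded and single-stranded RNA in endosomes. *Myd88* is the adaptor of all these Toll-like receptors except *Tlr3*, which signals through *Ticam1*. In the brain, microglia and border macrophages are the main cells known to carry most of these receptors, and *Tlr3* is also known from astrocytes.

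The levels given are normalized mRNA levels, that is reads counted on a gene divided by the size factor of the sample, so that 1 read was worth 0.756 to 1.18 units. Between 19331876 and 32621917 reads were counted on genes per sample. WT-GFP samples 1, 2 and 3 and APP-GFP sample 2 stood apart, with reads on 15575 to 19198 genes against at least 21602 in the other GFP+ samples. GFP- samples had reads on 30807 to 31897 genes, more than any GFP+ sample (at most 26757). *Socs3* levels averaged 19463 (SD 10281, n = 5) in APP-SOCS3 astrocytes, where the vector supplies it, while GFP alone gave 1079 (SD 493, n = 4) for APP mice and 834 (SD 269, n = 7) for WT mice. The summed level of 10 astrocyte markers in GFP+ samples was 1340 to 2495% of its mean in GFP- cells, as the label of these samples says. The summed level of 20 microglial markers, none of them among the 10 genes, was 6.83 to 24.7% of its GFP- mean in WT-GFP samples, 9.54 to 53.9% in APP-GFP samples and 4.97 to 9.10% in APP-SOCS3 samples, and each of these markers had more than 3 reads in at least 1 sample of every group. Border macrophage markers (8 genes) reached 0.390 to 32.7%, 11.0 to 36.5% and 0.0265 to 8.07% in the same order. Of 8 monocyte and neutrophil markers, 6 had at most 3 reads in every WT-GFP sample, 6 in every APP-GFP sample and 7 in every APP-SOCS3 sample.

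The Fc receptor genes lie close together on mouse chromosome 1. In the mm10 coordinates of the deposited table, *Fcgr2b* is at chr1:170960567-170976547, *Fcgr3* at chr1:171051169-171059403 and *Fcer1g* at chr1:171229574-171234349, and GENCODE M21 places all 3 on the minus strand. *Fcgr1* is at chr3:96282909-96293971, *Tlr2* at chr3:83836271-83841767, *Tlr3* at chr8:45395665-45410610, *Tlr4* at chr4:66827551-66930284, *Tlr7* at chrX:167304926-167330571 and *Myd88* at chr9:119335935-119340040. All positions of the 10 genes overlapped the GENCODE gene of the same symbol. *Fcgr2b* and *Tlr3* each overlap an annotated antisense gene on the opposite strand, and *Myd88* overlaps *Slc22a14* on the same strand and *Acaa1a* on the opposite strand. The library kit does not mark strand, so reads from overlapping genes on opposite strands cannot be told apart.

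*Fcgr2b* and *Fcgr3* encode opposite signals but share much of their coding sequence, which bears on how paired reads of 100 bases were assigned between them. The coding sequences of transcripts Fcgr3-201 (801 bases) and Fcgr2b-201 (1020 bases) were identical at 710 of 799 aligned bases, or 88.9%. The longest run that they share had 129 bases, and 6.27% of the 100-base windows of the *Fcgr3* coding sequence were found unchanged in *Fcgr2b*. Such a window stands for a single read, and pairs of reads were not examined. By contrast, the longest run that *Fcgr3* shares with *Fcgr4* had 14 bases and that with *Fcgr1* 9 bases. The sequences shown are, first, 120 coding bases that are the same in both genes (bases 263 to 382 of *Fcgr3* and 278 to 397 of *Fcgr2b*) and, second, the 120 aligned coding bases without a gap that differ most, with the 11 differing bases in capitals (bases 116 to 235 of *Fcgr3*, chr1:171057820-171057939, and 131 to 250 of *Fcgr2b*, chr1:170968109-170968228, minus strand).
Fcgr3 and Fcgr2b, shared: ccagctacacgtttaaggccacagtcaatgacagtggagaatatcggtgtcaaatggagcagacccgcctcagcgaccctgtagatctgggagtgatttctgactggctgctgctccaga
Fcgr3, most different: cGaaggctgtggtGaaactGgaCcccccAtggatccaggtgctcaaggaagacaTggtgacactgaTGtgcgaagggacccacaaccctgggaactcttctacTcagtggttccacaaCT
Fcgr2b, most different: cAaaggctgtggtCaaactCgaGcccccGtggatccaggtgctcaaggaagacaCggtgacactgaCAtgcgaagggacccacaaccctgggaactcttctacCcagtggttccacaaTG
How the authors treated reads that match both genes is not given in the sources used here, and the levels of *Fcgr2b* and *Fcgr3* carry that uncertainty.

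SOCS3 inhibits signalling to STAT factors, so the 250 bases upstream of the transcription start were searched on both strands for the STAT letters TTCNNNGAA, for GAAANNGAA (the core of an interferon-stimulated response element) and for GAGGAA (a core bound by PU.1, a myeloid factor). RefSeq windows on GRCm38.p6, the build of mm10, were on hand for 7 of the 10 genes. Of 27025 such windows over all genes, 7.18% held the STAT letters, 7.16% the interferon letters and 23.1% the PU.1 letters. STAT letters stood upstream of *Fcgr1* and *Myd88*, in *Myd88* overlapping the interferon letters, and PU.1 letters stood upstream of *Fcgr1* and *Fcgr3*. None of these letters was in the windows of *Fcer1g*, *Fcgr2b*, *Tlr2* and *Tlr3*. The windows lie upstream of RefSeq starts, which can differ from those of GENCODE. Those of *Fcgr2b*, *Fcgr3*, *Tlr3* and *Myd88* lie within the GENCODE gene, and those of *Fcer1g* and *Tlr2* partly. For these genes the 250 bases upstream of the GENCODE start were not, or not fully, searched. The windows of 4 genes are shown, those with a match and that of *Tlr3*, the member with the opposite pattern, with matches in capitals.
Fcgr1 (chr3:96293970-96294219, minus strand): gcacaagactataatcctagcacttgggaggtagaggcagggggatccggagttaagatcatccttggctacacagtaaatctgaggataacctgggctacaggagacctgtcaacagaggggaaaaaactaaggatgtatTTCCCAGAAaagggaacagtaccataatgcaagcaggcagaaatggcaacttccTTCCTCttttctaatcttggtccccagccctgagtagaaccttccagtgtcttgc
Fcgr3 (chr1:171059404-171059653, minus strand): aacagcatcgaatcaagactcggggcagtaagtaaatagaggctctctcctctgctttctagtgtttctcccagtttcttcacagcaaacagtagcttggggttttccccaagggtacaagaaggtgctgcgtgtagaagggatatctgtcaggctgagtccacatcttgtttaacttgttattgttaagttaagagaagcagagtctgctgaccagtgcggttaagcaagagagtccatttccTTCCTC
Myd88 (chr9:119340019-119340268, minus strand): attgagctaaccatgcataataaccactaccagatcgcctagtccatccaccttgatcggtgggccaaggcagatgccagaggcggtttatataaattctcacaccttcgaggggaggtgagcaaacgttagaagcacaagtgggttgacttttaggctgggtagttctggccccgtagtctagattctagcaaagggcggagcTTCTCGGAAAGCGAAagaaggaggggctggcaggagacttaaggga
Tlr3 (chr8:45410381-45410630, minus strand): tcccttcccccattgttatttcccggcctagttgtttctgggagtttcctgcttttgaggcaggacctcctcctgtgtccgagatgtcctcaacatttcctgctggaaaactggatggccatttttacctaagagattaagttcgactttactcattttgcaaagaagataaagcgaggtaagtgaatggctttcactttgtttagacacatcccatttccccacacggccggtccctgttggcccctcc
A match is a description of the letters only.

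The first comparison, of WT-GFP astrocytes with GFP- cells, shows in which sorted fraction the receptors were measured. Of the 10 genes, 8 were lower in astrocytes, 1 was higher, and *Tlr4* did not pass the thresholds (limma, with an unadjusted *p* up to 0.05 and a change of 1.5-fold or more). In this comparison 42.8% of 26709 tested genes passed, 33.5% lower and 9.25% higher. In 9 of the 10 genes, all except *Myd88*, the samples of both fractions did not overlap, which held for 34.8% of the tested genes. The median log2 fold change was -3.19 over the 10 genes and -1.31 over all tested genes. With DESeq2 on whole reads, *Fcgr1*, *Fcgr2b*, *Tlr2*, *Tlr4* and *Tlr7* had log2 fold changes of -2.56, -3.12, -3.32, -2.20 and -4.42. With limma these were -3.71, -4.38, -4.23, -3.26 and -6.05. Each of these genes had 2 reads or fewer in at least 1 astrocyte sample. The median over all tested genes was -0.67 with DESeq2. Leaving out the samples with fewest genes detected, here WT-GFP samples 1, 2 and 3, gave 9 genes lower and 1 higher. In that fit 9352 of 26661 tested genes were lower and 3008 higher.

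Activating Fc receptor genes were low in astrocytes. *Fcgr3* ranged from 129.8 to 813 in WT-GFP astrocytes (median 502) and had 1927, 2255 and 3039.6 in GFP- cells. All 7 astrocyte samples were below all GFP- samples, and the log2 fold change was -2.56 ± 0.60 (SE; adjusted *p* = 0.00798). *Fcer1g*, the shared signalling chain, ranged from 106 to 689 in astrocytes (median 401) against 1814, 2873 and 2463 in the GFP- samples (log2 fold change -2.69 ± 0.52, adjusted *p* = 0.00256). Its exact permutation *p* was 0.00833 (n = 7 and 3), the smallest that this design allows. *Fcgr1*, the high-affinity IgG receptor, ranged from 0 to 319 in astrocytes and from 518 to 710 in GFP- cells, with a log2 fold change of -3.71 ± 1.42 (unadjusted *p* = 0.0247, adjusted *p* = 0.0687). The *Fcgr1* call was lost without any 1 of the 3 GFP- samples (unadjusted *p* of 0.0610 to 0.0747), in the joint fit of all samples (0.0502), with edgeR (0.0522) and with a pseudocount of 0.1 (0.0677). The inhibitory receptor *Fcgr2b* ranged from 0.759, which is 1 read, to 404 in astrocytes and from 841 to 1153 in GFP- cells (log2 fold change -4.38 ± 1.34, adjusted *p* = 0.0291).

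Of the surface receptor genes, *Cd14* and *Tlr2* were lower in astrocytes. *Cd14*, at chr18:36725067-36726815 on the minus strand, was the member with the smallest *p*, with levels of 609 ± 222 in astrocytes (SD, n = 7) and 5150.4 ± 1569 in GFP- cells (SD, n = 3), which gave a log2 fold change of -3.13 ± 0.36 (adjusted *p* = 8.08e-05). *Tlr2* had 390 ± 272 and 4030 ± 963 (log2 fold change -4.23 ± 1.40, adjusted *p* = 0.0396). In WT-GFP sample 3 *Tlr2* had 2 reads, while the other astrocyte samples ranged from 273 to 903. *Tlr4* ranged from 0 to 245 in astrocytes and from 539.9 to 927 in GFP- cells. These ranges did not overlap, yet the fitted *Tlr4* difference of -3.26 ± 1.54 missed the threshold (unadjusted *p* = 0.0586). Without WT-GFP sample 3, where *Tlr4* had no read, the difference passed at -2.22.

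The endosomal receptors went in opposite directions. *Tlr3* was the only member that was higher in astrocytes, at 2579 ± 1286 (SD, n = 7) against 665 ± 299 in GFP- cells (SD, n = 3), which gave a log2 fold change of 1.89 ± 0.48 (adjusted *p* = 0.0121) and of 1.72 with samples scaled to equal totals. The 7 astrocyte samples ranged from 1244 to 4492 (median 2950), and GFP- samples had 958, 359.9 and 678. *Tlr7* showed the reverse, with 61.2 ± 64.1 in astrocytes and 1352 ± 215 in GFP- cells (log2 fold change -6.05 ± 1.68, adjusted *p* = 0.0190). *Tlr7* had no read in 2 of the 7 astrocyte samples. *Myd88*, the shared adaptor, differed least, at 432 ± 297 in astrocytes and 904 ± 202 in GFP- cells (log2 fold change -1.24 ± 0.44, unadjusted *p* = 0.0170, adjusted *p* = 0.0523). WT-GFP sample 2 had a *Myd88* level of 1087 and was the only astrocyte sample within the range of GFP- cells, 745 to 1131.

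**Figure D1:**
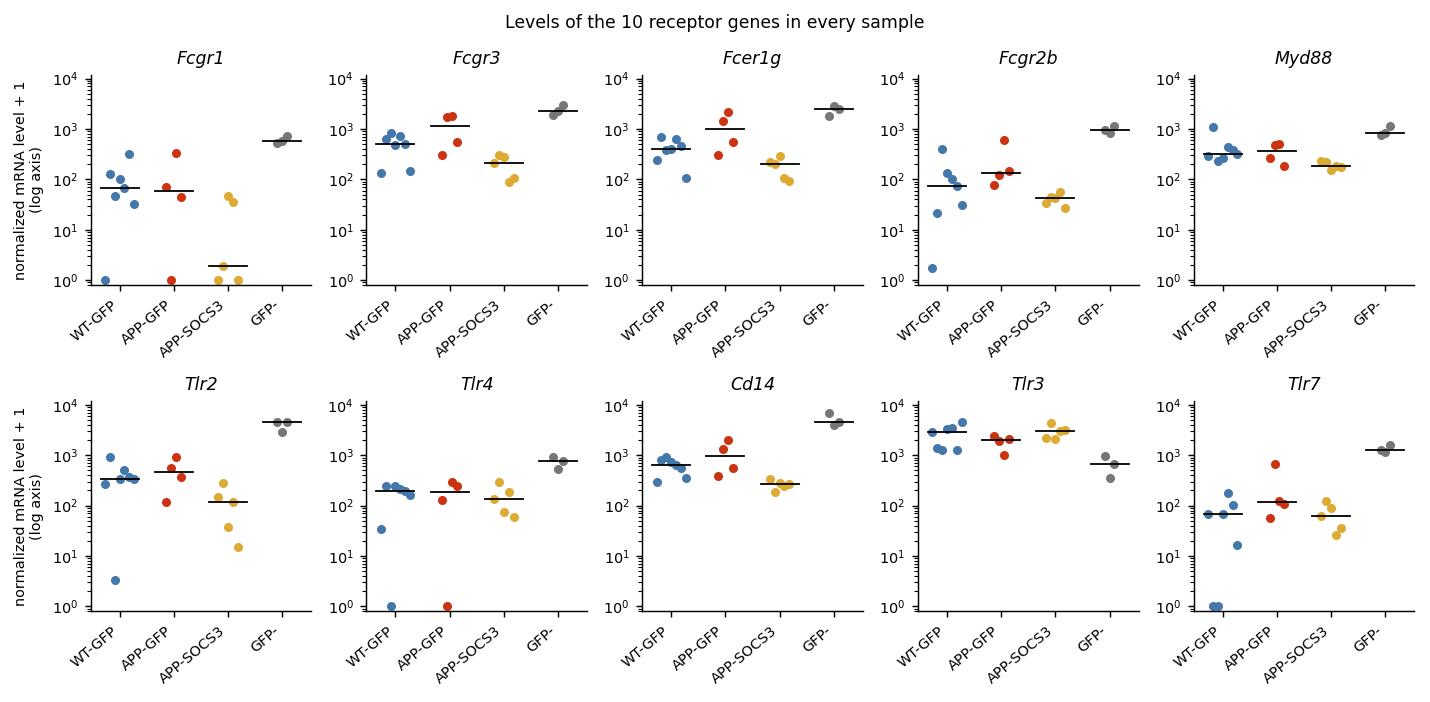
Normalized mRNA levels plus 1 (log axis) of the 10 genes, with 1 point per sample and a line at the median of each group (7 WT-GFP, 4 APP-GFP and 5 APP-SOCS3 astrocyte samples, 3 samples of GFP- cells). Points at the bottom have no read. *Tlr3* is the only gene whose GFP- samples, at 359.9 to 958, lie below all WT-GFP astrocyte samples.

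Levels can be set side by side between genes only per length, here per kb of merged GENCODE exons, since the lengths of the counted constitutive regions are not given. On that scale *Tlr3* led in WT-GFP astrocytes, at 495 ± 247 per kb (SD, n = 7), and was last in GFP- cells, at 128 ± 57.5 per kb (SD, n = 3). In WT-GFP astrocytes it was followed by *Fcer1g* (477 ± 234 per kb), *Cd14* (352 ± 128), *Fcgr3* (281 ± 153), *Myd88* (168 ± 115) and *Tlr2* (130 ± 90.4). Each of these neighbours differed by less than its SD. *Fcgr1*, *Tlr4*, *Fcgr2b* and *Tlr7* had mean levels of 38.0, 28.1, 18.8 and 15.0 per kb. In GFP- cells *Cd14* led at 2974 ± 906 per kb, near *Fcer1g* at 2727 ± 611, and *Fcgr3* (1387 ± 329) and *Tlr2* (1337 ± 320) followed within their SDs.

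The remaining genes of both pathways were counted from lists drawn up for this purpose. Between WT-GFP astrocytes and GFP- cells 33.5% of all tested genes were called lower and 9.25% higher. Of 14 genes of Fc receptor signalling 11 were lower in WT-GFP astrocytes than in GFP- cells, such as *Tyrobp*, an adaptor related to *Fcer1g* (583 against 3300, log2 fold change -2.73 ± 0.53), the kinase gene *Lyn* (714 against 3080, -2.17 ± 0.34) and *Inpp5d*, a phosphatase recruited by *Fcgr2b* (253 against 2923, -4.94 ± 1.58). Of 31 tested genes of Toll-like receptor signalling 14 were lower and 1, *Cnpy3*, a chaperone of Toll-like receptors, was higher (4748 against 2673, 0.82 ± 0.16). The median log2 fold change of these 31 genes was -2.02, against -1.31 over all tested genes. Of 12 genes that Toll-like receptors induce in many cells, 10 were lower, such as *Ccl4* (618 against 7591, -3.76 ± 0.49).

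The second comparison asks what changed in astrocytes of APP mice. None of the 10 genes passed the thresholds between APP-GFP and WT-GFP astrocytes with limma, and none had an unadjusted *p* under 0.05. The thresholds were passed by 2.23% of 22969 tested genes, 1.66% higher and 0.57% lower, and groups did not overlap in 0.313% of them and in none of the 10 genes. With edgeR and with DESeq2 on whole reads 1 member passed in each, *Fcer1g*, with log2 fold changes of 1.43 and 1.40. Over all genes 659 and 530 of 22969 passed in these fits. The median log2 fold change was 0.76 over the 10 genes and 0.09 over all tested genes.

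The 4 APP-GFP samples differed widely among themselves, and in *Fcer1g*, *Fcgr3* and *Cd14* the same samples were high. *Fcer1g* had levels of 302, 1422, 2155 and 547 in APP-GFP samples 1 to 4, against 106 to 689 in WT-GFP samples. Samples 2 and 3 were above every WT-GFP sample, while samples 1 and 4 lay within the WT-GFP range, and the log2 fold change was 1.22 ± 0.59 (95% interval -0.06 to 2.50, unadjusted *p* = 0.0601). *Fcgr3* had 302, 1693, 1806 and 547, with a log2 fold change of 1.07 (95% interval -0.30 to 2.45). *Cd14* had 394, 1342, 2042 and 551, with a log2 fold change of 0.62 (95% interval -0.37 to 1.62). In all 3 genes the same samples 2 and 3 were high, and these samples also had the highest summed levels of microglial markers, 103673 and 126261.5. Without these 2 samples the log2 fold changes of *Fcer1g*, *Fcgr3* and *Cd14* were 0.17, 0.02 and -0.29.

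The other members gave wider or smaller differences. *Fcgr2b* had 76.0, 121, 595 and 143 in APP-GFP samples against 0.759 to 404 in WT-GFP samples (log2 fold change 1.85, 95% interval -0.83 to 4.54). *Tlr7* reached 659 in APP-GFP sample 2, while the other APP-GFP samples had 57.0, 123 and 106 (log2 fold change 2.89, 95% interval -0.45 to 6.23). Leaving out WT-GFP sample 2 gave 1 called member, leaving out WT-GFP sample 5 gave 2, and leaving out APP-GFP sample 1 gave 3. Over all genes these fits called 506 of 22842, 471 of 23026 and 556 of 22969. Intervals for *Tlr3* (-1.22 to 0.49) and *Myd88* (-1.18 to 0.78) were narrower than those of *Fcgr1*, *Tlr2* and *Tlr4*, the last of which spanned -4.32 to 3.43. Among the pathway lists, *Tyrobp* was higher in APP-GFP astrocytes (2366 against 583, log2 fold change 1.85 ± 0.60, unadjusted *p* = 0.00843). *Ly86*, which encodes a partner of the receptor-like *Cd180*, was also higher (1090 against 265, 1.55 ± 0.64, unadjusted *p* = 0.0311). No other of the 52 tested pathway genes passed, where 2.23% of all tested genes did, and no adjusted *p* of these genes was under 0.05.

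The third comparison, of APP-SOCS3 with APP-GFP astrocytes, asks which genes differed between APP mice with and without the SOCS3 vector. Of the 10 genes, 6 were lower and 1 higher in APP-SOCS3 astrocytes, where 5.7% of 22844 tested genes passed, 3.37% lower and 2.33% higher. The samples of both groups did not overlap in 3 members, *Fcer1g*, *Fcgr2b* and *Cd14*, and in 2.01% of the tested genes. No member passed a Benjamini-Hochberg adjusted *p* of 0.05 with limma (adjusted *p* of 0.576 or more), while the Wald test of DESeq2 on whole reads gave adjusted *p* values of 0.00174 for *Fcer1g*, 0.00394 for *Cd14*, 0.004 for *Fcgr3* and 0.019 for *Fcgr2b*. This comparison shares the APP-GFP samples with the second one. Microglial markers were lower in the same samples, with 18 of 20 called lower, as were 10 of 10 endothelial markers and 6 of 8 border macrophage markers, and their part in the result was not tested. In sorted bulk samples, fewer cells of a type and less RNA per cell cannot be told apart.

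*Fcer1g* levels in APP-SOCS3 samples were 217, 203, 295, 105 and 93.2, all below the lowest APP-GFP sample at 302. The mean was 183 ± 84.1 (SD, n = 5) against 1107 ± 848 (SD, n = 4), a log2 fold change of -2.34 ± 0.57 (unadjusted *p* = 0.00177) with an exact permutation *p* of 0.00794, the smallest possible here. *Fcgr3* fell to 212, 304, 272, 89.2 and 104.6, and 4 of the 5 samples were below the lowest APP-GFP sample (log2 fold change -2.26 ± 0.58, unadjusted *p* = 0.00256). *Fcgr2b*, the inhibitory receptor, was lower as well, with 33.1, 44.6, 41.0, 55.9 and 26.4 in APP-SOCS3 samples (log2 fold change -2.08 ± 0.63, unadjusted *p* = 0.00709). In the joint fit of all samples the *Fcgr2b* call was lost (unadjusted *p* = 0.0695). Activating and inhibitory receptor genes had lower levels in the same samples. *Fcgr1* had no read or 1 read in 3 of the 5 APP-SOCS3 samples and no read in APP-GFP sample 2, and its log2 fold change of -2.68 (95% interval -6.73 to 1.37) was not called.

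Among Toll-like receptor genes, *Cd14* had 342, 185, 276, 244 and 273 in APP-SOCS3 samples, all below the lowest APP-GFP sample at 394 (log2 fold change -1.76 ± 0.45, unadjusted *p* = 0.00228). *Tlr2* had 150.1, 286, 36.0, 117 and 14.1 and was called lower at -2.32 ± 0.87 (unadjusted *p* = 0.0214). Without APP-GFP sample 3 this call was lost, at -1.90. *Tlr3* was called higher, at 2941 ± 880 (SD, n = 5) against 1860 ± 583 (SD, n = 4), a log2 fold change of 0.68 ± 0.28 (unadjusted *p* = 0.0329), with an exact permutation *p* of 0.0714. The *Tlr3* call was lost without APP-GFP sample 3, where its level was 1028, and without APP-SOCS3 sample 2, 4 or 5. *Myd88* had 190 ± 32.1 against 356 ± 159 (log2 fold change -0.80 ± 0.36, unadjusted *p* = 0.0472), and this call was lost in 7 of the 9 fits that left out 1 sample. *Tlr7* (-1.36, 95% interval -3.01 to 0.29) and *Tlr4* (1.18, 95% interval -2.04 to 4.41) were not called.

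The lower Fc receptor genes and *Cd14* did not rest on APP-GFP samples 2 and 3 alone. With both left out, *Fcer1g*, *Fcgr3*, *Fcgr2b* and *Cd14* were still called lower, with log2 fold changes of -1.29, -1.21, -1.40 and -0.84, and the calls of *Tlr2*, *Tlr3* and *Myd88* were lost. Over all genes 924 of 23109 were called in this fit, 551 of them lower. APP-GFP samples 1 and 4, which remained, had summed microglial levels of 22354.7 and 34285.2, above all APP-SOCS3 samples. The part of these levels in the result was not tested. Without APP-GFP sample 3 alone, 4 members were called, and 1214 of 22720 tested genes. Leaving out the samples with fewest genes detected, here APP-GFP sample 2, kept 7 calls, in which *Fcgr1* (-4.35) took the place of *Myd88*. Over all genes 1279 of 23153 were called there. With the summed microglial level as a covariate no member was called with limma, and the smallest unadjusted *p* was 0.289. The summed levels of both groups did not overlap (11647 to 21333 in APP-SOCS3 and 22355 to 126261.5 in APP-GFP samples). This fit therefore cannot separate the group from the microglial level.

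**Figure D2:**
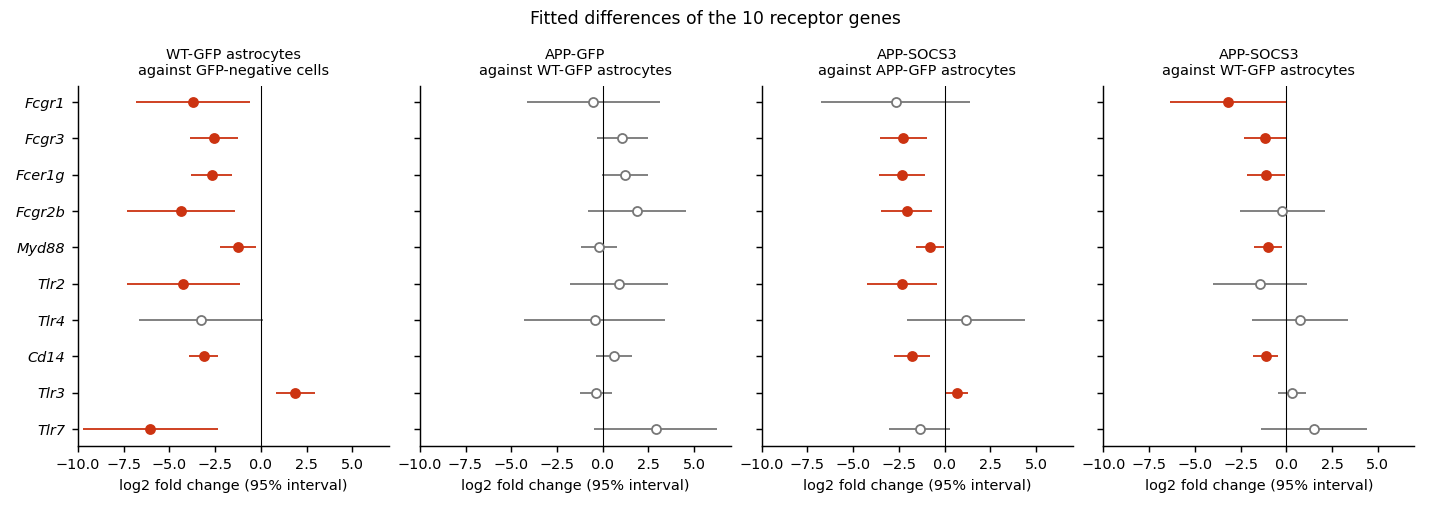
Fitted log2 fold changes (points) with 95% intervals (bars) of the 10 genes in the 4 comparisons, from limma on log2(level + 1). Filled red points passed the thresholds of p up to 0.05 and 1.5-fold change. *Tlr3* stands on the opposite side of 0 from the other called genes in the panels of WT-GFP astrocytes against GFP- cells and of APP-SOCS3 against APP-GFP astrocytes, and no point is filled for APP-GFP against WT-GFP astrocytes.

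Of 53 tested pathway genes outside the 10, 13 were called lower and 40 were not called, where 3.37% of all tested genes were called lower. The log2 fold change was above 0 in 16 of the 53. Of 13 tested genes of Fc receptor signalling 5 were called lower in APP-SOCS3 than in APP-GFP astrocytes, among them *Tyrobp* (523 against 2366, log2 fold change -2.10 ± 0.68) and *Inpp5d* (92.5 against 746, -2.83 ± 0.51). Of 30 tested Toll-like receptor signalling genes, whose median log2 fold change was -0.07 against 0.08 over all tested genes, 3 were called lower, *Tlr12*, *Ly86* and *Unc93b1*, the last of which carries endosomal Toll-like receptors to their compartment (789 against 1601, -0.85 ± 0.34). Of 10 tested target genes 5 were called lower, such as *Ccl4* (495 against 1617, -1.33 ± 0.49) and *Cxcl1* (-4.35 ± 1.10). No pathway gene was called higher, and none had an adjusted *p* under 0.05 with limma.

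The fourth comparison sets APP-SOCS3 against WT-GFP astrocytes and shares its samples with both preceding ones. Of the 10 genes 5 were lower and none higher, where 5.21% of 22958 tested genes passed, 2.02% lower and 3.19% higher. *Cd14* was lower at 264 ± 57.0 (SD, n = 5) against 609 ± 222 (SD, n = 7), a log2 fold change of -1.13 ± 0.31 (unadjusted *p* = 0.0027, exact permutation *p* = 0.00505). *Myd88* was the only member whose samples did not overlap, with 151 to 226 in APP-SOCS3 and 235 to 1087 in WT-GFP astrocytes, against 0.566% of the tested genes (ratio of means 0.440, unadjusted *p* = 0.0160). *Fcgr3* (-1.19 ± 0.53), *Fcer1g* (-1.12 ± 0.47) and *Fcgr1* (-3.19 ± 1.48) were also called. The *Fcgr1* call was lost with edgeR (unadjusted *p* = 0.116) and with DESeq2 (0.0605). In limma fits it was lost with a pseudocount of 0.1 (0.0796), without a minimum level (0.0507) and with the replicate block (0.0772). It was also lost on leaving out any 1 of WT-GFP samples 2 to 7 or of APP-SOCS3 samples 1, 2 and 5. No adjusted *p* was below 0.364. The number of called members fell to 2 without WT-GFP sample 2, 4, 5 or 6 or APP-SOCS3 sample 5, and to 3 without APP-SOCS3 sample 1 or 4. Over all genes, leaving out 1 sample gave 904 to 1435 calls. *Tlr3* differed little between these groups, at 2941 ± 880 and 2579 ± 1286 (log2 fold change 0.31, 95% interval -0.43 to 1.05). Of the microglial markers 14 of 20 were called lower in this comparison, as were 7 of 10 endothelial and 0 of 8 border macrophage markers. Their part in the result was not tested.

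The summed level of microglial markers was then set against each gene over the 16 GFP+ samples, with permutation *p* values adjusted over 10 relations. *Fcgr3* followed it most closely (Pearson r = 0.97, Spearman rho = 0.97, both raw permutation *p* values 1e-05, the smallest possible, adjusted *p* = 3.33e-05 and 5e-05). The relation held without APP-GFP samples 2 and 3, the 2 samples farthest from the median (r = 0.95, n = 14), and within WT-GFP samples alone (r = 0.98, n = 7). *Fcer1g* had r = 0.95 and rho = 0.95, with r = 0.90 without these 2 samples and 0.86 within WT-GFP. *Cd14* had r = 0.94 and rho = 0.90, with 0.89 and 0.93. APP-GFP and APP-SOCS3 hold fewer than 6 samples each, so no value within them is given.

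The other genes were less closely related to it. *Myd88* had r = 0.69 and rho = 0.71 (permutation, adjusted *p* = 0.0068 and 0.00705), and r was 0.45 within WT-GFP samples. *Fcgr2b* had r = 0.63 and rho = 0.63 (permutation, adjusted *p* = 0.0135 and 0.0175). *Tlr3* was related in the opposite direction (r = -0.64, rho = -0.61, permutation adjusted *p* = 0.0143 and 0.0176), with r = -0.53 without the 2 samples and -0.55 within WT-GFP. *Tlr2* and *Fcgr1* had ranks that followed the microglial sum (rho = 0.69 and 0.62) but Pearson r of 0.41 and 0.43 that did not pass adjustment (permutation, adjusted *p* = 0.14 and 0.139). For *Tlr7* r was 0.09 and for *Tlr4* -0.24. These genes had samples with 2 reads or none, among them WT-GFP sample 3 for *Tlr2*, *Tlr4* and *Tlr7*.

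**Figure D3:**
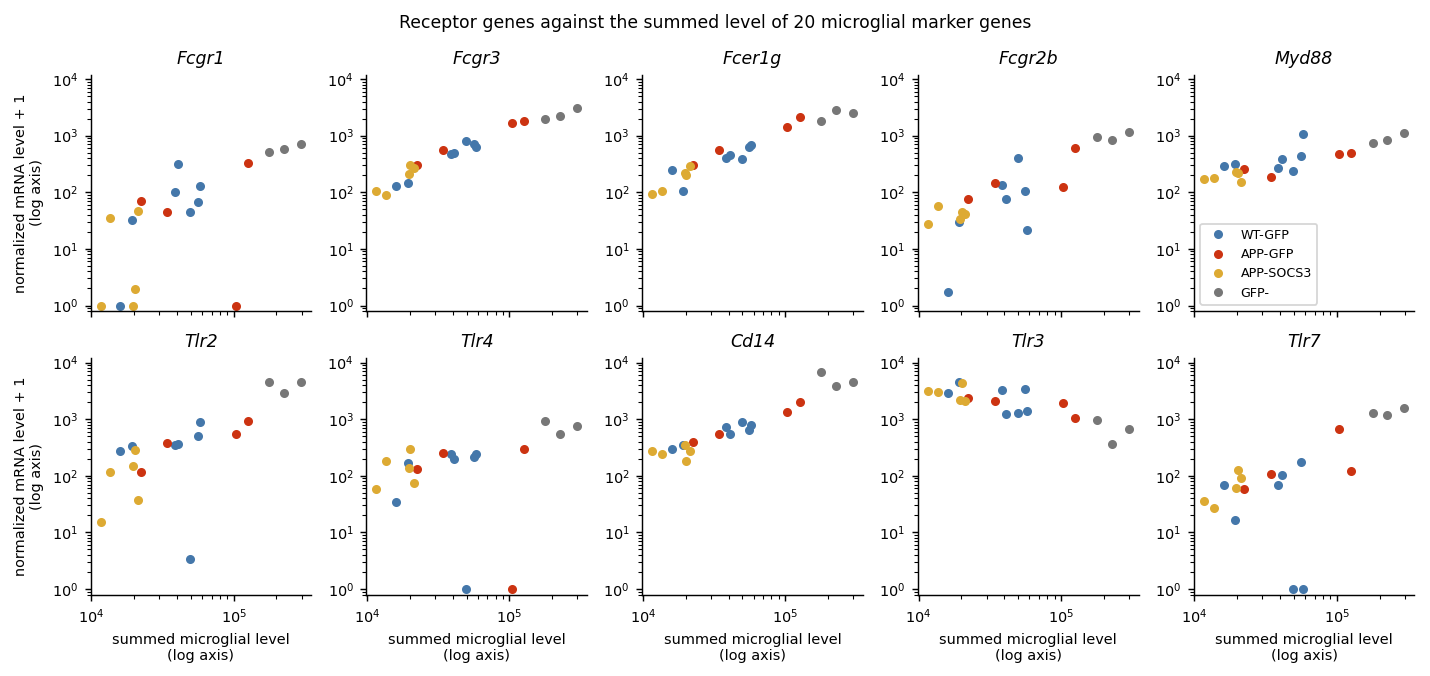
Normalized mRNA level plus 1 of each gene (vertical, log axis) against the summed level of 20 microglial markers in the same sample (horizontal, log axis), with 1 point per sample and colours for the 4 groups. *Fcgr3*, *Fcer1g* and *Cd14* lie along a rising line over the 16 GFP+ samples (r of 0.94 to 0.97), and *Tlr3* falls (r = -0.64).

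Divided by the microglial sum of the same sample, the 3 closely related genes overlapped among the 3 astrocyte groups. These genes were picked for their relation to this sum in the same samples, so the overlap is not a separate result. *Fcgr3* had 115 ± 30.3 units per 10000 units of the microglial sum in WT-GFP samples (SD, n = 7), 150.25 ± 13.3 in APP-GFP samples (SD, n = 4) and 108 ± 33.0 in APP-SOCS3 astrocytes (SD, n = 5), and 103 ± 4.48 in GFP- cells (SD, n = 3). *Cd14* had 161 ± 30.9, 157 ± 19.7, 162 ± 54.1 and 239 ± 130 in the same order. *Fcer1g* had 105 ± 31.3, 151 ± 17.3, 101 ± 25.0 and 104 ± 22.1. For *Fcgr3* and *Fcer1g*, all APP-GFP samples lay above all GFP- samples, a comparison that was not tested. For *Fcer1g* the ratio was higher in APP-GFP than in WT-GFP and APP-SOCS3 astrocytes (exact permutation *p* = 0.0394 and 0.0317), but over the 40 ratios tested no adjusted *p* was under 0.05 (0.303 for both).

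The microglial sum itself was 39756 in WT-GFP astrocytes and 234370.4 in GFP- cells on average, so a gene less reduced than the microglial markers has a higher ratio in astrocytes even where its level is lower, as for *Myd88*. *Tlr3* had 919 ± 839 units per 10000 in WT-GFP astrocytes and 30.8 ± 20.2 in GFP- cells (exact permutation *p* = 0.00833, the smallest possible, adjusted *p* = 0.222), and the lowest astrocyte sample, at 239, was above the highest GFP- sample, at 53.8. Every WT-GFP sample had a higher *Tlr3* level and a lower microglial sum than every GFP- sample. The separation of the *Tlr3* ratio was therefore given in advance and adds nothing to the comparison of levels. *Myd88* had 118 ± 59.0 and 38.9 ± 2.58 units per 10000 (exact permutation *p* = 0.0167, adjusted *p* = 0.222). Every WT-GFP astrocyte sample, from 47.5 up, was above the highest GFP- sample, at 41.8. With the microglial sum as a covariate in the comparison of WT-GFP astrocytes and GFP- cells, 2 members were called, *Cd14* (-1.46) and *Tlr7* (-9.05), and the *Tlr3* difference was 0.34 and no longer called. The sums did not overlap (16002 to 57868 in WT-GFP and 178260.4 to 298033.5 in GFP- samples). This fit therefore cannot separate the sorted fraction from the microglial sum.

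**Figure D4:**
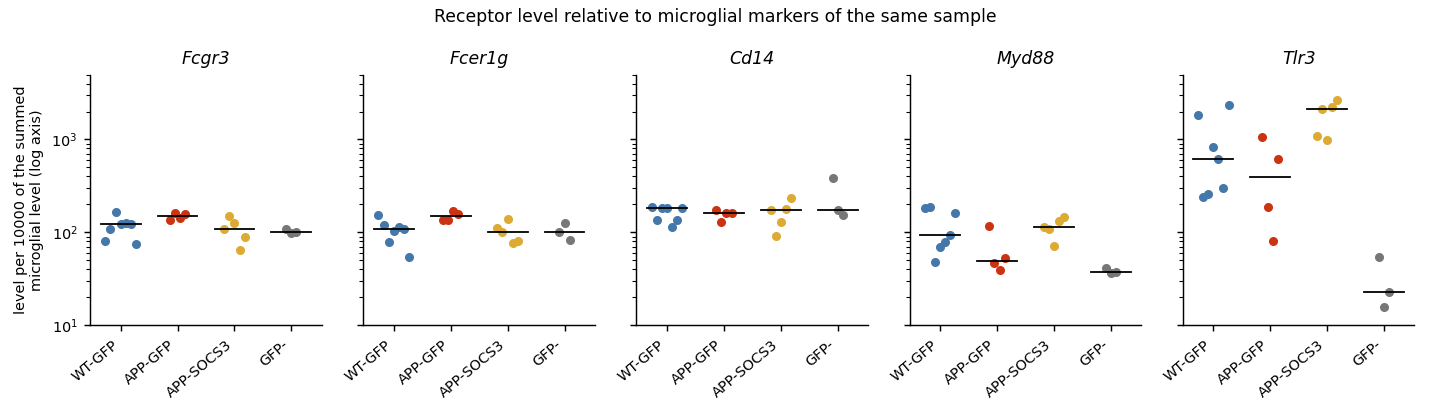
Level of 5 genes per 10000 units of the summed level of 20 microglial markers in the same sample (log axis), with 1 point per sample and a line at the median of each group. *Fcgr3*, *Fcer1g* and *Cd14* overlap among the 3 astrocyte groups, whereas *Tlr3* is 239 or more in WT-GFP astrocytes and at most 53.8 in GFP- cells. The overlap is not a separate result, since these 3 genes were picked for their relation to this sum in the same samples. The *Tlr3* separation follows from its higher levels and the lower microglial sums in WT-GFP astrocytes.

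Among 12256 genes whose mean level reached 50 over the 16 GFP+ samples, the genes most like each member were found by Pearson correlation of log2 levels, as a description without a test. *Fcer1g* was most like *Ctss* (r = 0.97) and *C1qc* (0.97). *Fcgr3* was most like *Fcrls* (0.96), *C1qb* (0.96) and *C1qc* (0.96), and *Cd14* was most like *Selplg* (0.95), *Ctss* (0.93) and *C1qb* (0.92). All of these are on the list of microglial markers. *Fcgr2b* was most like *Pycard*, the adaptor of inflammasomes (0.92), *Hmha1* (0.88) and *Alox5ap* (0.88).

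The remaining members had other neighbours. *Tlr3* was most like *Dag1*, which encodes dystroglycan (0.92), *AI464131* (0.91) and *Gja1*, which encodes the astrocyte connexin 43 (0.89). *Myd88* was most like *Egfl7*, a gene known from endothelial cells (0.91), *Cracr2b* (0.90) and *Ier2* (0.89). *Fcgr1* was most like *Gsdmd* (0.83), *Bloc1s3* (0.79) and *Trpv2* (0.79). *Tlr2* was most like *Celf4* (0.92), *Abcg2* (0.91) and *Fam105a* (0.91), *Tlr4* like *Mga* (0.97), *Fbxo33* (0.96) and *Mlxip* (0.96), and *Tlr7* like *Matk* (0.94), *Gtdc1* (0.94) and *L3mbtl3* (0.92). The samples share library amplification and depth, and several of these genes have samples without reads. Among the 10 genes themselves, r over the 16 samples was 0.95 for *Fcer1g* and *Fcgr3*, 0.89 for *Fcgr3* and *Cd14* and 0.88 for *Fcer1g* and *Cd14*, and no other pair exceeded 0.8.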

How the data were processed

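RNAseq was performed by the authors on FACS-sorted cells, with cDNA amplified from low RNA input. Reads were mapped by the authors to mm10 with STAR 2.4.0 and counted on constitutive regions of FAST DB genes. What the authors deposited is a signal, in which the reads of each gene are divided by the DESeq2 size factor of the sample. In all 19 samples 100% of values were whole multiples of 1 read within 0.01, from which whole reads were recovered. Whether counting used strand is not given in the sources used here.

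From these values, log2(level + 1) was compared with limma 3.58.1 (R 4.3.3, mean-variance trend) between 2 groups alone, on genes whose mean reached 10 in 1 of the groups or both. As in the study, a call needed an unadjusted *p* up to 0.05 and a change of 1.5-fold or more. Samples held 19331876 to 32621917 reads on genes, and amplification adds to counting error. Single genes were compared by 2-sided exact permutation tests, and relations to microglial markers by 100000 permutations. Alternatives were other pseudocounts, level minima and scaling, a joint fit of all samples, Benjamini-Hochberg adjustment, edgeR 4.0.16 and DESeq2 1.42.0 on the recovered reads, a replicate block, the microglial sum as covariate and leaving out samples. The ratio to the microglial sum, and leaving out several samples at once, were chosen after seeing the data. The fit was tested on simulated data. Samples were grouped by their titles.

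The members and gene lists were chosen with earlier results of these data known. All 10 members are named, with pathway genes that were called and, for each member, the 3 genes with the highest correlation over the 16 GFP+ samples, except that 1 such gene and 1 transgene are not reported here. Alignment of coding sequences used GENCODE M21, and upstream windows were RefSeq's.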

Additional observations from a re-analysis of the deposited data

Results flagged for a closer look

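In 5 of 30 sets of values (10 genes in 3 astrocyte groups) 1 sample lay far from the others of its group by Dixon's criterion at the 95% level. The levels were not log-transformed. Chance alone meets this criterion in about 1 of 20 sets only where values are normally distributed, which was not tested. All 5 samples were the highest of their group. *Fcgr1* had 319 in WT-GFP sample 6, the highest of 7. *Fcgr2b* had 404 in WT-GFP sample 3, the highest of 7, and 595 in APP-GFP sample 3, the highest of 4. *Tlr7* had 659 in APP-GFP sample 2, the highest of 4, and *Myd88* had 1087 in WT-GFP sample 2, the highest of 7. APP-GFP samples 2 and 3 are also those with the highest summed level of microglial markers in GFP+ cells. WT-GFP sample 2 had the highest summed levels of endothelial and mural cell markers in GFP+ cells, 28756.8 and 28013.1. The part of these summed levels in the flagged values was not tested.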

How the results depend on the processing

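Of 498 fold changes of members recomputed under settings other than leaving out 1 sample, 403 kept their direction and their side of the thresholds. Another 47 kept their direction but were no longer called, and 15 kept it and became called. The other 33 changed sign and were counted only as such. Some of them also lost their call, such as *Fcgr3* in the first comparison with the microglial covariate. Precision is limited by the small groups and amplified low inputs, in which several genes had samples with no read.

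The number of called members moved as follows. For WT-GFP astrocytes against GFP- cells it was 9, and 2 with the microglial covariate. For APP-GFP against WT-GFP it was 0, and 2 in the joint fit of all samples, 1 with edgeR, 1 with DESeq2 and 1 with the replicate block (*Fcgr3*). For APP-SOCS3 against APP-GFP it was 7, and 3 in the joint fit (without *Fcgr2b*, *Tlr2*, *Tlr3* and *Myd88*), 0 with the microglial covariate, 0 with an adjusted *p* under 0.05 and 4 without the 2 samples of most microglial RNA. For APP-SOCS3 against WT-GFP it was 5, and 0 with the covariate or with adjusted *p*. Leaving out 1 sample gave 7 to 10, 0 to 3, 4 to 8 and 2 to 5 members in these comparisons. Over all genes it gave 8838 to 11679, 393 to 677, 1052 to 1836 and 904 to 1435. Over all genes, 11419, 513, 1301 and 1197 were called. A minimum level of 100 gave 6709, 123, 650 and 441, the covariate 5669 in the first and 526 in the third, no minimum 817 and the joint fit 991 in the second, and adjusted *p* under 0.05 gave 1, 1 and 7 in the last 3 comparisons. Fewer genes are tested with a higher minimum, and the other causes were not tested. Scaling to equal totals moved the median of all tested genes from -1.31 to -1.50 in the first comparison and changed no member's sign.

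Of the 33 changes of sign, 13 came with the microglial covariate. In the first comparison this gave *Fcgr1* 3.04, *Fcgr3* 1.17, *Fcer1g* 0.039, *Fcgr2b* 1.48 and *Myd88* 0.023. It gave *Tlr4* 0.014 in the second, *Tlr4* -0.54, *Tlr7* 0.36 and *Myd88* 0.010 in the third, and *Fcgr3* 0.47, *Fcer1g* 0.17, *Fcgr2b* 2.00 and *Tlr3* -0.28 in the fourth. In the second comparison *Fcgr1* and *Tlr4* were 0.23 and 0.16 with edgeR, 0.17 and 0.11 with DESeq2, 0.21 and 0.56 with the replicate block, 0.15 and 0.071 without the 4 samples of fewest genes (*Tlr2* -0.15), and 0.30 and 1.25 without the 2 samples of most microglial RNA (*Cd14* -0.29). *Tlr4* in the third was -0.18 with edgeR, -0.19 with DESeq2, -0.75 without the samples of fewest genes and -0.51 without those of most microglial RNA. In the fourth it was -0.045, -0.080 and -0.68 with edgeR, DESeq2 and without the samples of fewest genes, which also gave *Tlr7* -0.21. Leaving out 1 sample in the second comparison gave ranges of -1.64 to 1.16 for *Fcgr1*, -1.48 to 1.49 for *Tlr4*, -0.11 to 1.46 for *Tlr2* and -0.41 to 0.077 for *Myd88*, in the third -0.75 to 1.99 for *Tlr4*, and in the fourth -1.01 to 0.30 for *Fcgr2b* and -0.30 to 1.02 for *Tlr4*. The causes of these changes were not tested.

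The labels do not tie same-numbered samples together. Their deviations from group means correlated at -0.078 to 0.15. In APP-SOCS3 against APP-GFP 3 of 4 samples correlated best with their own number, and in the other comparisons most did not, so the numbers were not taken to pair samples. The replicate block gave 9, 1, 5 and 4 called members.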
